A study of Mus musculus with 16 samples.

Results

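Chemokine receptors are cell surface receptors that couple to G proteins and steer leukocytes along gradients of chemokines, small secreted proteins. In bone marrow, CXCR4 holds progenitors near stromal CXCL12, whereas CCR2 and CXCR2 are known for letting monocytes and neutrophils leave for the blood. CX3CR1, the receptor for fractalkine, is a textbook mark of macrophage and dendritic cell progenitors and of monocytes.

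The transcript levels of 8 chemokine receptor genes (Ccr1, Ccr2, Ccr7, Ccr9, Cx3cr1, Cxcr2, Cxcr3 and Cxcr4) are described here, chosen by name from the 22180 genes measured. They were read on 16 Affymetrix arrays, 4 in each of 4 groups of cells from mouse bone marrow. These were MDPs, the progenitors shared by macrophages and dendritic cells, and cMoPs, which are committed to monocytes, each from control Dnmt1+/+ mice and from Dnmt1c/chip mice, all 8 to 12 weeks old. Dnmt1 encodes the methyltransferase that copies DNA methylation to the new strand after replication, and the c/chip genotype combines a null with a hypomorphic allele of it. The labels name no promoter or cell type that restricts this genotype, and do not say whether an array holds 1 animal or a pool. The sorting gate was CD115+, CD11b-, high for Kit and negative for lineage markers, with Ly-6C absent on MDPs and present on cMoPs, and they are stages of 1 lineage in which the cMoP descends from the MDP. The design allows genotypes to be compared within a cell type and cell types within a genotype. Whether the 4 arrays of a group came from separate animals is not stated either. The p-values thus weigh differences against a spread between arrays that may be technical.

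Values are log2 levels, in which a difference of 1 is a 2-fold change, and the median probe set of an array lay at 3.43 to 3.62. Dnmt1 was at 9.81 to 9.95 on control and 8.36 to 8.97 on c/chip MDP arrays, and at 9.66 to 9.86 on control and 8.69 to 9.0 on c/chip cMoP arrays. The genotype difference was −1.10 in MDPs (limma adjusted p = 3.48e-04) and −0.91 in cMoPs (0.00814). Ly6c2 followed the gate and was 1.84 higher in control cMoPs than in control MDPs, while c/chip MDPs exceeded control MDPs by 1.06. The genes of the other surface markers of the sort, Kit, Csf1r (CD115) and Itgam (CD11b), differed by at most 0.50 between genotypes, and none of these differences passed. Flt3, a receptor of MDPs and dendritic cell progenitors, was lower in c/chip than in control MDPs (log2 difference −1.96, limma adjusted p = 2.71e-04). Arrays of a group correlated at 0.972 to 0.987 on average. On 3 of the 4 c/chip MDP arrays (replicates 1, 3 and 4), Xist (9.51 to 10.65) and Y-linked transcripts (mean level 5.27 to 6.42) were both high, whereas no other array had Xist above 8 together with Y-linked transcripts above 5. These 3 arrays therefore stand apart from the others. Without them, the c/chip MDPs keep 1 array, replicate 2, and Dnmt1 differed in MDPs by −1.50 (limma adjusted p = 0.00213), Flt3 by −2.26 (0.00626) and Ly6c2 by 1.20 (0.0203).

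Each receptor gene was represented by 1 probe set. Cxcr2 (chr1:74153994-74161246) and Cxcr4 (chr1:128588199-128592299) lie on chromosome 1, Ccr7 (chr11:99144199-99155077) on chromosome 11 and Cxcr3 (chrX:101731535-101734147) on the X chromosome. The other 4 lie on chromosome 9: Cx3cr1 (chr9:120048683-120068296), Ccr9 (chr9:123767211-123783457), Ccr1 (chr9:123962126-123968692) and Ccr2 (chr9:124101918-124109140). Positions are those of RefSeq on GRCm38.p6 and serve to place the genes, since no build is given for the array.

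Because Dnmt1 acts at CpG dinucleotides, the promoter windows of 4 of the receptors are given, from 250 bases before to 50 bases after a RefSeq start on the strand of the gene, with each CG in capitals. For Ccr2 the window belongs to a start within the gene and lies wholly inside the span given above. The gene with the largest difference between groups (Cxcr2), the monocyte lineage receptors Cx3cr1 and Ccr2, and the marrow retention receptor Cxcr4 were chosen.
Cxcr2: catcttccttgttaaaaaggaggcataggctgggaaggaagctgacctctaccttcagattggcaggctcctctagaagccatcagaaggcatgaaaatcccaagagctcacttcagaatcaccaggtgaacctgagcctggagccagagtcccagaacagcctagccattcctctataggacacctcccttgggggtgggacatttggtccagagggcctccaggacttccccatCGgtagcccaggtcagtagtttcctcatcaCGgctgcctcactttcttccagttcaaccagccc
Cx3cr1: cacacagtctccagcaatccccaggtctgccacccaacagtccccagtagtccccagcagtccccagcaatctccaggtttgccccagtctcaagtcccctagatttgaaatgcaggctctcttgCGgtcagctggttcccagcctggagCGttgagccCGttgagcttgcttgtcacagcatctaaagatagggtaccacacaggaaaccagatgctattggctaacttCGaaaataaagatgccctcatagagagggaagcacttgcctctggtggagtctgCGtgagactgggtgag
Ccr2: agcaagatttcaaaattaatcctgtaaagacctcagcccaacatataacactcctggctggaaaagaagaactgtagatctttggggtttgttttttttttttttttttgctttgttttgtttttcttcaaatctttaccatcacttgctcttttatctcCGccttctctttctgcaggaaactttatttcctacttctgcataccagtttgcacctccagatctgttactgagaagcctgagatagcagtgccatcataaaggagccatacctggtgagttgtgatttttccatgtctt
Cxcr4: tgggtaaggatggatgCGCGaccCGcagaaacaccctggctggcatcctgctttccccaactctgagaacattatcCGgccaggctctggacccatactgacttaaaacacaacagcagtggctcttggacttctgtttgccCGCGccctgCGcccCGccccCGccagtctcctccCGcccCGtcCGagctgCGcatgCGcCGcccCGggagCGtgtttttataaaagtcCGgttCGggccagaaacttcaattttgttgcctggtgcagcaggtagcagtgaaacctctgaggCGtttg
The windows lie at chr1:74153744-74154043 on the plus strand (Cxcr2), chr9:120068247-120068546 on the minus strand (Cx3cr1), chr9:124101933-124102232 on the plus strand (Ccr2) and chr1:128592250-128592549 on the minus strand (Cxcr4). The motif CG reads the same on both strands. The Cxcr2 window held 2 CGs, and 85.9% of all 32851 RefSeq windows of this length held as many or more. In the Ccr2 window there was 1 CG, as in that of Ccr1 (1), and 94.6% of windows held as many or more. Cx3cr1 had 5 CGs and Ccr9 and Cxcr3 had 4 each, against a median of 7 over all windows. The Cxcr4 window stood apart with 20, a number that 26.5% of windows reached. Windows were matched for 7 of the 8 genes. Methylation was not measured on these arrays, so the counts describe the sequences only.

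**Figure D1:**
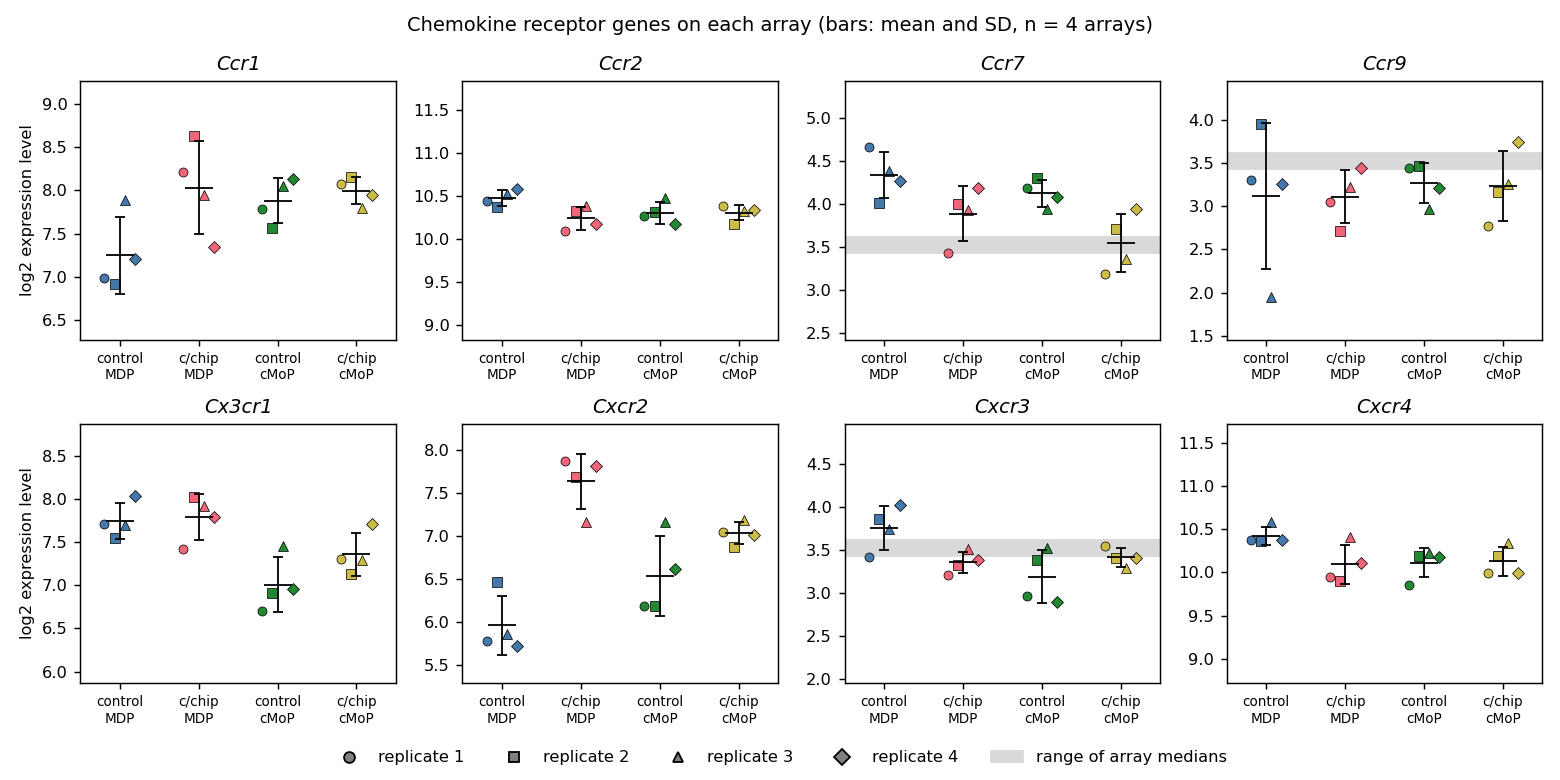
Log2 level of each receptor gene (vertical axis, each panel spanning 3 log2 units) on each of the 16 arrays, by group, with the mean and SD over 4 arrays and the range of array medians as a grey band. Cxcr2 is at 7.17 to 7.87 in c/chip MDPs and at 5.73 to 6.47 in control MDPs, Ccr2 and Cxcr4 vary little, and Ccr7, Ccr9 and Cxcr3 lie near the band.

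In MDPs, 1 of the 8 receptor genes differed between genotypes. Cxcr2, the neutrophil receptor for CXCL1, CXCL2 and related chemokines, was 3.2-fold higher in c/chip MDPs than in control MDPs. On control MDP arrays its log2 level was 5.79, 6.47, 5.87 and 5.73 for replicates 1 to 4, the order kept for all 4 values of a group (mean 5.96 ± 0.34, SD, n = 4). On c/chip MDP arrays it was 7.87, 7.69, 7.17 and 7.82 (mean 7.64 ± 0.32). All 4 c/chip arrays thus lay above all 4 control arrays. The log2 difference was 1.68 (SE 0.223, 95% confidence interval 1.21 to 2.15, limma adjusted p = 6.82e-04). A 2-sided exact permutation test over the 70 arrangements of 4 against 4 arrays gave p = 0.0286, the smallest it can give, and 32 such tests were made over the receptors. Among all genes, 1.95% were called in this comparison and 7% had no overlap between the 4 and 4 arrays. For the receptor genes, the count was 1 of 8 on either criterion.

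The Cxcr2 difference did not hinge on single arrays. It lay between 1.60 and 1.84 when each of the 16 arrays was left out in turn, and stayed called each time (adjusted p up to 0.00391). With the 3 c/chip MDP arrays that had both Xist and Y-linked transcripts left out, the difference of the remaining array, replicate 2, from the control MDPs was 1.73 (limma adjusted p = 0.0387), on the assumption that this lone array varies like the other groups. That setting was chosen after the data had been seen.

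In cMoPs, Cxcr2 did not pass between genotypes. Its level on control cMoP arrays was 6.19, 6.19, 7.17 and 6.62 (mean 6.54 ± 0.46, SD, n = 4), and on c/chip cMoP arrays 7.05, 6.88, 7.19 and 7.02 (mean 7.04 ± 0.13). Control replicate 3 lay among the c/chip arrays. The difference was 0.49 (SE 0.223, 95% confidence interval 0.02 to 0.97, limma adjusted p = 1). The change in the genotype effect from MDPs to cMoPs was −1.18 (SE 0.315, 95% confidence interval −1.85 to −0.52), which did not pass over all genes either (limma adjusted p = 0.265), so a different effect in the 2 cell types is not shown.

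Between cell types Cxcr2 ran in opposite directions in the 2 genotypes, and neither difference passed. Control cMoPs exceeded control MDPs by 0.58 (SE 0.223, limma adjusted p = 0.186) and c/chip cMoPs differed from c/chip MDPs by −0.60 (SE 0.223, limma adjusted p = 0.177). The order of the group means was c/chip MDPs, c/chip cMoPs, control cMoPs and control MDPs, and each group overlapped the next one in this order.

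Transcripts of granulocytes and of platelet precursors were also higher in c/chip MDPs, the group in which Cxcr2 was highest. The list of late neutrophil genes had a mean level of 3.44 to 5.80 on control MDP arrays and of 5.58 to 8.15 on c/chip MDP arrays. In MDPs 2 of its 14 genes passed, Ltf and Lcn2, both higher (1.26% of all genes were called higher and 0.685% lower), and the median difference over the list was 2.10, against 0.03 over all genes. The defining neutrophil gene Ly6g averaged 2.88 ± 0.54 (SD, n = 4) on control MDP arrays and 4.03 ± 1.75 on those of c/chip MDPs, where it ran from 2.24 to 6.27. Of the 14, 4 had a group mean below the median level of the arrays for control MDPs, against 0 for c/chip MDPs. The list mean was 4.59 to 5.54 on control and 4.64 to 6.11 on c/chip cMoP arrays. The control cMoPs lay below all c/chip MDPs, while the c/chip cMoPs overlapped both MDP groups.

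The primary granule genes, which promyelocytes and monocyte progenitors also express, had a mean level of 8.02 to 8.50 on control MDP arrays, 9.15 to 9.98 on c/chip MDP arrays, 9.97 to 10.09 on control cMoP arrays and 10.12 to 10.19 on c/chip cMoP arrays. In MDPs 6 of these 9 genes were called higher and 0 called lower, against 1.26% and 0.685% of all genes. Megakaryocyte genes had a mean level of 3.45 to 4.52 on control and of 4.88 to 6.09 on c/chip MDP arrays. Of these 9, 6 were called higher and 0 called lower. Basophil and mast cell genes had a mean level of 4.17 to 4.76 on control and of 5.05 to 6.17 on c/chip MDP arrays. Of these 10, 5 were called higher and 0 called lower. The part of these lists in the Cxcr2 result was not tested. In these sorted bulk samples more cells with a transcript and more of it per cell cannot be told apart.

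Without the 3 c/chip MDP arrays with both Xist and Y-linked transcripts, 0.744% of all genes were called between genotypes in MDPs (0.469% higher and 0.275% lower). The listed genes called higher in c/chip MDPs then numbered 0 of 14 for late neutrophils, 5 of 9 for primary granules, 1 of 9 for megakaryocytes and 1 of 10 for basophils and mast cells. The median differences were 1.39, 1.43, 0.46 and 0.42, each from replicate 2 alone against the 4 control arrays, where they had been 2.10, 1.53, 1.30 and 0.88 with all arrays. The primary granule list thus kept most of its size, and the others moved further.

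Array by array within c/chip MDPs, the late neutrophil mean was 8.15, 5.58, 6.07 and 6.87 on replicates 1 to 4, where Cxcr2 was at 7.87, 7.69, 7.17 and 7.82. The primary granule mean was 9.98, 9.31, 9.15 and 9.30. Cxcr2 and both list means were highest on replicate 1, Cxcr2 and the primary granule mean were lowest on replicate 3, and the late neutrophil mean was lowest on replicate 2. All 4 arrays lay above every control MDP array in the primary granule mean, and 3 of 4 in the late neutrophil mean. In c/chip cMoPs, where Cxcr2 was at 6.88 to 7.19, the neutrophil mean was 4.64 to 6.11.

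**Figure D2:**
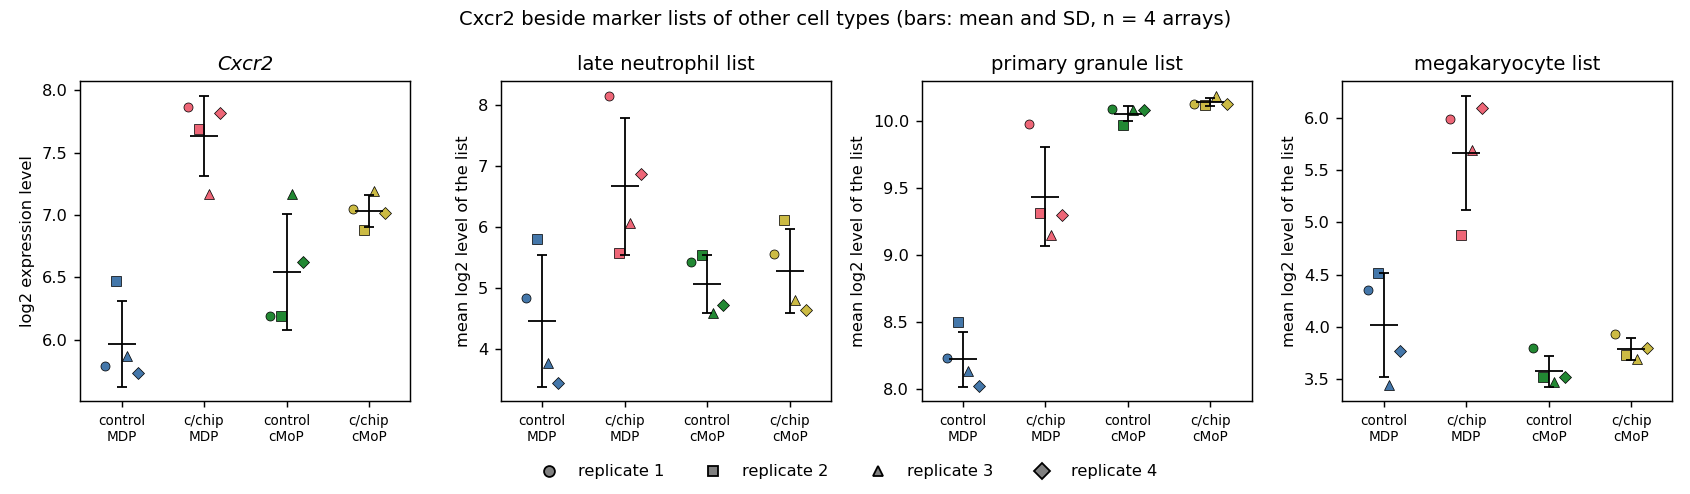
Cxcr2 log2 level and the mean log2 level of the late neutrophil (14 genes), primary granule (9) and megakaryocyte (9) lists (vertical axes) on each array, by group, with mean and SD over 4 arrays. Cxcr2 and the neutrophil and megakaryocyte means are highest in c/chip MDPs, while the primary granule mean is highest in cMoPs of both genotypes.

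The genes whose levels followed Cxcr2 most closely over the 16 arrays were Wipi1 (Pearson r = 0.92), an autophagy gene, Cpne2 (0.91), a copine gene, and Ubxn2a (0.89). With the group means removed, the correlations were 0.68, 0.66 and 0.46. The arrays share their groups, and these coefficients are descriptions picked from all genes. Their differences between genotypes in MDPs, which this choice largely fixes and which are given with no test, were 1.03, 1.74 and 1.61, and 1.00, 1.64 and 1.34 without the 3 arrays.

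Among the receptors for inflammatory CC chemokines, Ccr1 and Ccr2 gave no call. Ccr1, a receptor for CCL3 and CCL5, was at 6.98, 6.91, 7.89 and 7.21 in control MDPs (mean 7.25 ± 0.45, SD, n = 4) and at 8.21, 8.63, 7.95 and 7.34 in c/chip MDPs (mean 8.03 ± 0.54). Control replicate 3 and c/chip replicate 4 brought the groups into overlap. The difference of 0.78 (SE 0.248, 95% confidence interval 0.26 to 1.31) did not pass over all genes (limma adjusted p = 0.126), and it was called in 1 of the 16 fits that left out an array, the one without c/chip MDP replicate 4 (1.01, adjusted p = 0.0434). Without the 3 arrays with both Xist and Y-linked transcripts it was 1.38 (SE 0.325, adjusted p = 0.0787), the difference of c/chip replicate 2 alone from the controls.

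In cMoPs, Ccr1 was at 7.78, 7.57, 8.05 and 8.13 in controls (mean 7.88 ± 0.26) and at 8.07, 8.16, 7.80 and 7.95 in c/chip mice (mean 8.00 ± 0.16), so the genotypes overlapped throughout. The genotype difference was 0.12 (95% confidence interval −0.41 to 0.64). Control cMoPs exceeded control MDPs by 0.64 (SE 0.248, limma adjusted p = 0.194), whereas in c/chip mice the cell types differed by −0.03 (95% confidence interval −0.56 to 0.49). The lowest group mean was thus that of the control MDPs, and every group overlapped its neighbour in the order.

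Ccr2, the receptor through which CCL2 calls monocytes out of the marrow, had nearly the same level in all groups. Its values were 10.44, 10.37, 10.52 and 10.58 on control MDP arrays, 10.09, 10.33, 10.38 and 10.17 in c/chip MDPs, 10.27, 10.31, 10.48 and 10.17 in control cMoPs, and 10.38, 10.18, 10.33 and 10.34 in c/chip cMoPs. The group means spanned 0.23 and neighbouring groups overlapped. The difference in MDPs was −0.23 (95% confidence interval −0.48 to 0.02, limma adjusted p = 0.399), and in cMoPs the 95% confidence interval ran from −0.25 to 0.25.

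Cx3cr1 was the 1 receptor called between the 2 control progenitors. Control MDP arrays held 7.71, 7.55, 7.70 and 8.04 (mean 7.75 ± 0.21, SD, n = 4), and control cMoP arrays held 6.70, 6.91, 7.46 and 6.96 (mean 7.01 ± 0.32). All 4 cMoP arrays lay below all 4 MDP arrays, with cMoP replicate 3 closest to them. The level was 1.68-fold lower in cMoPs, a log2 difference of −0.74 (SE 0.185, 95% confidence interval −1.14 to −0.35, limma adjusted p = 0.0261, exact permutation p = 0.0286). In this comparison 4.56% of all genes were called and 10.8% had no overlap. Of the 8 receptor genes, 1 was called and 2 had no overlap, Cx3cr1 and Cxcr4.

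The Cx3cr1 call rested on the arrays of these 2 groups. Among the 16 fits with an array removed, 5 no longer called it, those without control cMoP replicate 1 (adjusted p = 0.101), 2 (0.0605) or 4 (0.0714), and control MDP replicate 3 (0.052) or 4 (0.086). It was also lost in a fit of the 8 control arrays alone (limma adjusted p = 0.0555), where the difference is the same and the spread is estimated from these arrays.

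In c/chip mice the cell types overlapped for Cx3cr1. Its levels were 7.42, 8.03, 7.92 and 7.79 in c/chip MDPs (mean 7.79 ± 0.27) and 7.31, 7.13, 7.29 and 7.71 in c/chip cMoPs (mean 7.36 ± 0.25). The difference of −0.43 (SE 0.185, 95% confidence interval −0.82 to −0.04) did not pass (limma adjusted p = 0.258). Genotype differences were 0.04 in MDPs (95% confidence interval −0.36 to 0.43) and 0.35 in cMoPs (−0.04 to 0.74, limma adjusted p = 1), and the change between them, 0.31 (SE 0.262, adjusted p = 0.794), did not pass. The order of the means was c/chip MDPs, control MDPs, c/chip cMoPs and control cMoPs, with overlap between neighbours.

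Cxcr4, the receptor for the stromal chemokine CXCL12, was at 10.38, 10.36, 10.58 and 10.38 in control MDPs (mean 10.42 ± 0.10, SD, n = 4). It was at 9.86, 10.19, 10.22 and 10.18 in control cMoPs (mean 10.11 ± 0.17), all below the control MDPs. The difference between them was small, −0.31 (SE 0.143, 95% confidence interval −0.61 to −0.01), and did not pass (limma adjusted p = 0.289, exact permutation p = 0.0286). In c/chip mice the levels were 9.95, 9.90, 10.41 and 10.11 in MDPs (mean 10.09 ± 0.23) and 9.99, 10.19, 10.34 and 9.99 in cMoPs (mean 10.13 ± 0.17), which overlapped. Control MDPs headed the order, but c/chip MDP replicate 3 (10.41) lay among them. The other 3 groups overlapped one another.

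Genotype differences of Cxcr4 were −0.33 in MDPs (SE 0.143, limma adjusted p = 0.288) and 0.01 in cMoPs (95% confidence interval −0.29 to 0.32). Immediate early genes, which respond to handling and stress, varied within every group. In each group replicates 1 and 2 lay above replicates 3 and 4. Their mean level on replicates 1 to 4 was 7.48, 7.81, 6.33 and 7.08 in control MDPs and 7.10, 6.88, 5.18 and 5.65 in c/chip MDPs. It was 7.82, 7.57, 5.63 and 7.03 in control cMoPs and 7.16, 7.37, 5.56 and 5.20 in c/chip cMoPs. The part of these genes in the Cxcr4 values was not tested.

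**Figure D3:**
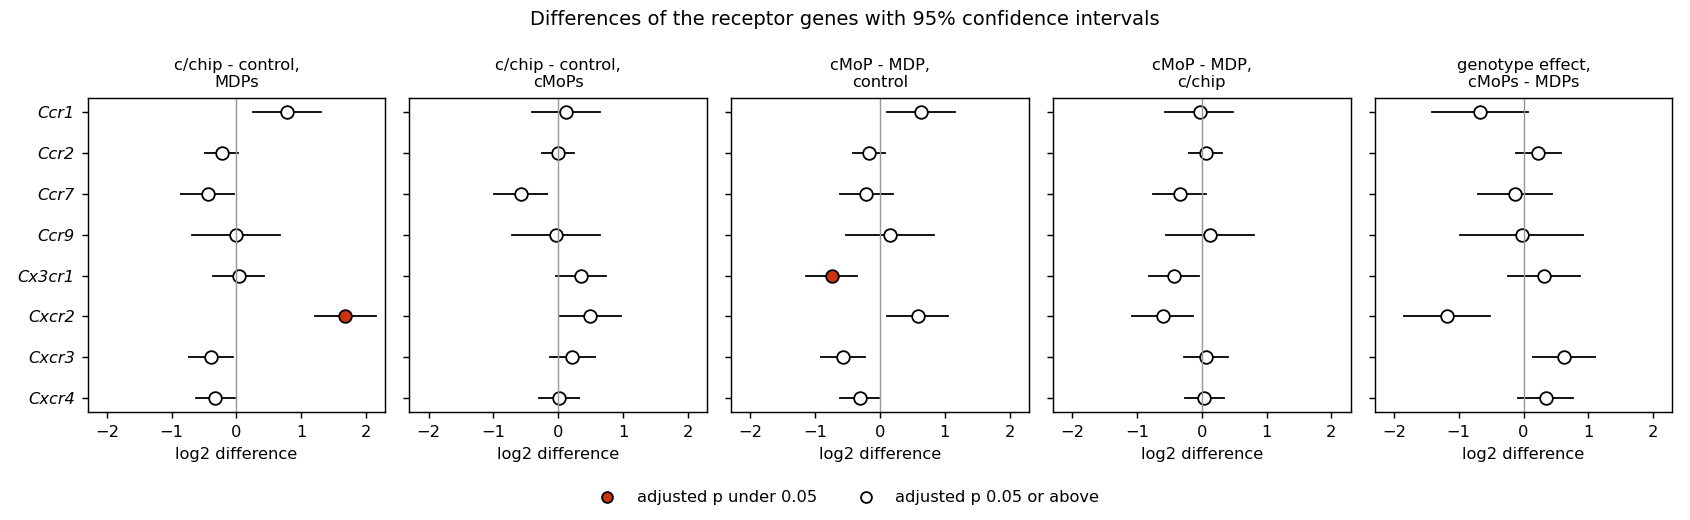
Log2 difference of each receptor gene (horizontal axis) in the 5 comparisons, with 95% confidence intervals from the fit of all 16 arrays, and red points for an adjusted p under 0.05. The red points are Cxcr2 in MDPs (1.68) and Cx3cr1 between the control cell types (−0.74).

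The receptors of lymphoid and dendritic cells lay near the array medians. Cxcr3, a receptor of activated T cells for CXCL9 and CXCL10, was below the median of its array on 11 of 16 arrays. It was at 3.42, 3.86, 3.74 and 4.02 in control MDPs (mean 3.76 ± 0.26) and at 2.97, 3.38, 3.52 and 2.90 in control cMoPs (mean 3.19 ± 0.30), and MDP replicate 1 overlapped the cMoPs. The difference of −0.57 (SE 0.161, 95% confidence interval −0.91 to −0.23) fell just short of the threshold (limma adjusted p = 0.0537). It passed in 3 of 16 fits with an array removed, control cMoP replicate 2 (limma adjusted p = 0.0488) or 3 (0.0314) or control MDP replicate 1 (0.0238). In the other 13 it did not pass (adjusted p up to 0.176). It also passed with array weights (0.0307), after quantile normalization (0.0469) and with the genes of lowest mean level (a share of 0.25) removed (0.0444). In 6 of the 9 other settings it did not pass (up to 0.156).

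Cxcr3 was at 3.21, 3.33, 3.51 and 3.38 in c/chip MDPs (mean 3.36 ± 0.13) and at 3.55, 3.41, 3.29 and 3.41 in c/chip cMoPs (mean 3.42 ± 0.10), which overlapped. The genotype differences were −0.40 in MDPs (SE 0.161, limma adjusted p = 0.242) and 0.22 in cMoPs (SE 0.161, adjusted p = 1). T and NK cell genes had a mean level of 2.82 to 3.5 over all arrays, and in each group at least 9 of the 12 measured lay below the median level. The gene lies on the X chromosome, and both control groups held 2 arrays with high and 2 with low Xist. The c/chip groups were not balanced in this way. Xist was at 9.51, 4.26, 10.65 and 9.72 on c/chip MDP replicates 1 to 4. It was at 10.9, 4.71, 5.16 and 4.33 on those of c/chip cMoPs. The part of this in the Cxcr3 differences was not tested.

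Ccr7, which guides dendritic cells to lymph nodes, was at 4.67, 4.02, 4.39 and 4.27 on control MDP arrays, 3.44, 4.0, 3.93 and 4.19 in c/chip MDPs, 4.19, 4.30, 3.94 and 4.08 in control cMoPs, and 3.19, 3.71, 3.36 and 3.94 in c/chip cMoPs. Both c/chip groups had the lower mean, with overlap in each case. The differences were −0.44 in MDPs (SE 0.193, limma adjusted p = 0.297) and −0.58 in cMoPs (SE 0.193, limma adjusted p = 0.716), and the cell types differed by −0.21 in controls (adjusted p = 0.684) and −0.34 in c/chip mice (adjusted p = 0.414). On 2 of 16 arrays, both of c/chip cMoPs, its level lay below the array median.

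Ccr9, the gut and thymus homing receptor that plasmacytoid dendritic cells also carry, lay below the median on 14 of 16 arrays. It was at 3.31, 3.96, 1.95 and 3.26 on control MDP arrays, 3.05, 2.72, 3.23 and 3.45 in c/chip MDPs, 3.44, 3.47, 2.97 and 3.21 in control cMoPs, and 2.77, 3.17, 3.26 and 3.75 in c/chip cMoPs. All groups overlapped, and the differences of −0.01, −0.03, 0.15 and 0.12 in the 4 pairwise comparisons had adjusted p-values of 0.881 to 1. The 95% confidence intervals lay within −0.71 and 0.83, so that differences in Ccr9 inside these intervals remain compatible with the data. Plasmacytoid dendritic cell genes had a mean level of 4.83 to 5.24 in control MDPs and of 4.12 to 4.66 in the other groups.

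Counted over the 8 receptors, 1 was called higher and 0 were called lower with the c/chip genotype in MDPs, against 1.26% and 0.685% of all genes. In cMoPs none was called by limma, where 0.113% of all genes were (0.0676% higher and 0.0451% lower), and none was without overlap, as 3.87% of all genes were. At an unadjusted limma p under 0.05 there were 5 receptors in MDPs, where 14.3% of all genes were, and 2 in cMoPs, where 4.74% were. Between control cell types, 0 were called higher and 1 was called lower in cMoPs, against 2.84% and 1.71% of all genes. Between c/chip cell types none was called by limma and none was without overlap, against 3.29% of all genes called (1.8% higher and 1.49% lower) and 10.1% without overlap. For the interaction none was called by limma, against 0.0586% of all genes (0.0135% higher and 0.0451% lower). At an unadjusted p under 0.05 there were 5 receptors between control cell types (16.1% of all genes), 2 between c/chip cell types (15.9%) and 2 for the interaction (8.52%). The median differences over the 8 genes were −0.12, 0.06, −0.19 and 0.00 in the pairwise comparisons, against medians over all genes that lay between −0.04 and 0.03. Each genotype comparison shares a group of arrays with each cell type comparison.

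Without the 3 c/chip MDP arrays with both Xist and Y-linked transcripts, the difference in MDPs was 1.73 for Cxcr2 and 1.38 for Ccr1. The genotype differences in MDPs were then −0.14 for Ccr2, −0.34 for Ccr7, −0.40 for Ccr9, 0.27 for Cx3cr1, −0.43 for Cxcr3 and −0.53 for Cxcr4. Between c/chip cell types they were −0.63 for Ccr1, −0.02 for Ccr2, −0.45 for Ccr7, 0.52 for Ccr9, −0.67 for Cx3cr1, −0.66 for Cxcr2, 0.08 for Cxcr3 and 0.23 for Cxcr4. The interaction was −1.23 for Cxcr2 (limma adjusted p = 0.332) and −1.26 for Ccr1 (0.276). All of these rest on 1 c/chip MDP array.

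Other chemokine receptors gave no call with all arrays. Of 16 listed, 15 were measured, and none passed limma in any of the 5 comparisons, with differences between −0.68 and 0.95 in MDPs and between −0.42 and 0.24 in cMoPs. Most of them lay low, 11 or 12 of the 15 below the median level in each group. Without the 3 c/chip MDP arrays with both Xist and Y-linked transcripts, 1 of the 15 passed, Cxcr1, the other receptor for CXCR2 ligands. It was at 6.19 on c/chip MDP replicate 2, a difference of 3.08 from control MDPs (limma adjusted p = 0.000977), against 0.95 (adjusted p = 0.386) with all 4 arrays. Cxcr1 was singled out after its values were seen, and this value rests on 1 array.

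Of 38 chemokine ligand genes, 36 were measured. The one called between genotypes was Pf4, a platelet chemokine also known as CXCL4, with a mean of 5.79 ± 1.26 (SD, n = 4) in control and 8.67 ± 0.49 in c/chip MDPs (log2 difference 2.89, SE 0.478, limma adjusted p = 0.00484). In cMoPs it was lower than in MDPs, by a log2 difference of −2.17 in controls (adjusted p = 0.0122) and −5.51 in c/chip mice (adjusted p = 5.87e-06). Ppbp, a platelet ligand of CXCR2, was lower in c/chip cMoPs than in c/chip MDPs (−1.70, SE 0.362, limma adjusted p = 0.0131), and its genotype difference in MDPs was 1.30 (SE 0.362, adjusted p = 0.078). Pf4 and Ppbp also belong to the megakaryocyte list. Without the 3 arrays the genotype difference of Pf4 was 2.32 and no longer passed (adjusted p = 0.248), while that between c/chip cell types did (−4.95, adjusted p = 0.00663), and Ppbp between c/chip cell types did not (−0.84, adjusted p = 0.326). In that setting Cxcl12 (1.65, adjusted p = 0.00706) and Ccl25 (−1.39, adjusted p = 0.0328) passed in MDPs, both from the single array of replicate 2, against 0.43 and −0.31 with all arrays.

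A list of 19 ligands of the 8 receptors, which leaves out Pf4, had 17 measured. It gave 0 calls between genotypes, against 1.95% of all genes in MDPs and 0.113% in cMoPs. The other CXCR2 ligands measured, Cxcl1, Cxcl2, Cxcl3 and Cxcl5, differed between genotypes in MDPs by 0.34 (SE 0.275), −0.88 (SE 1.1), 0.15 (SE 0.254) and 0.36 (SE 0.163), none of which passed.

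Of 40 genes that act downstream of chemokine receptors, 35 were measured, and 3 passed in any of the 5 comparisons, with at most 2 of 35 in one comparison. Over all genes, 1.95%, 0.113%, 4.56%, 3.29% and 0.0586% were called in MDPs, in cMoPs, between control and between c/chip cell types, and for the interaction. Rgs10, a regulator that turns off G protein signalling, was lower in c/chip MDPs than in controls (log2 difference −0.66, SE 0.144, limma adjusted p = 0.028), and 0.63 higher in c/chip cMoPs than in c/chip MDPs (adjusted p = 0.0216). With an array removed, 5 and 4 of the 16 fits lost these calls, where adjusted p reached 0.0791 and 0.0903. Rgs1, a relative of it that dampens chemokine responses in lymphocytes, was lower in cMoPs, with differences of −2.44 in controls (SE 0.538, adjusted p = 0.0121) and −2.47 in c/chip mice (SE 0.538, adjusted p = 0.0155, lost in 3 of 16 fits without 1 array). The phospholipase gene Plcb2 was higher in cMoPs of controls, by 0.58 (SE 0.15, limma adjusted p = 0.0331), a call lost in 7 of 16 such fits. Without the 3 c/chip MDP arrays, Rgs10 passed neither between genotypes (−0.46, adjusted p = 0.442) nor between c/chip cell types (0.43, adjusted p = 0.446), and Rgs1 between c/chip cell types did not pass either (−3.27, adjusted p = 0.0607).

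Of the remaining marker lists, no gene passed limma between genotypes in cMoPs. In MDPs 1.26% of all genes were called higher and 0.685% lower. There 0 of 13 mature monocyte genes passed. Of 12 conventional dendritic cell genes 1 passed (lower), which was Flt3, given above with the sort markers. Of 10 plasmacytoid dendritic cell genes 2 passed (lower), Siglech and Cox6a2. Of 11 B cell genes 2 passed (lower), Dntt and Il7r, and of 12 T and NK cell genes 1 passed (higher), Gzmb. Without the 3 c/chip MDP arrays these calls were different: 0 of 13 mature monocyte, 1 of 12 conventional dendritic cell (lower), 1 of 10 plasmacytoid dendritic cell (higher, with 0 lower), 1 higher and 2 lower of 11 B cell, and 0 of 12 T and NK cell genes. B cell genes had a mean level of 4.18 to 4.66 on control MDP arrays and of 3.31 to 3.89 on the others. With all arrays, their genotype differences in MDPs were 5 positive and 6 negative, the largest those of Dntt (−4.68) and Il7r (−3.17). Cd79a (0.89), Cd79b (0.43), Ebf1 (0.11), Ms4a1 (−0.09) and Pax5 (−0.14) did not pass. Mature monocyte genes ranged from 5.09 to 5.68 over all arrays, and conventional dendritic cell genes from 4.65 to 5.57 on MDP and from 4.02 to 4.35 on cMoP arrays. None of the 19 immediate early genes passed between genotypes, yet most of their differences had the same sign. In MDPs 18 were lower and 1 was higher with c/chip (median −1.10, against 0.03 over all genes). In cMoPs all 19 were lower (median −0.69, against −0.01).

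**Figure D4:**
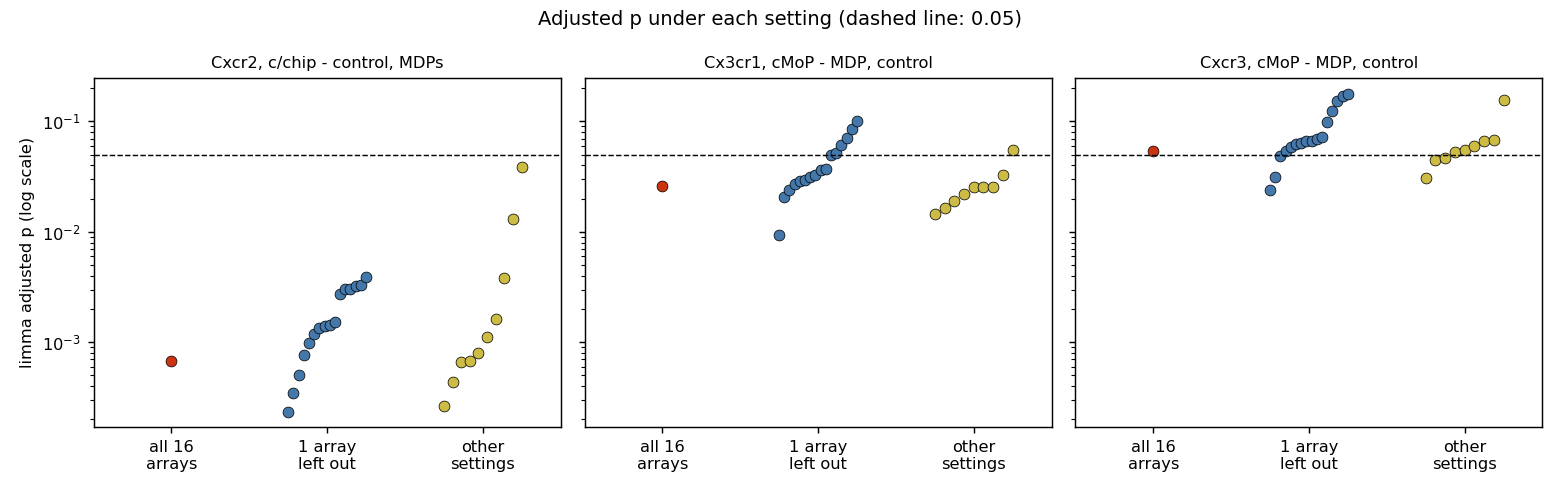
Limma adjusted p (vertical axis, log scale) of Cxcr2 in MDPs and of Cx3cr1 and Cxcr3 between the control cell types, with all 16 arrays, with 1 array left out and under the other settings tried; the dashed line is 0.05. Every Cxcr2 point lies below the line, whereas the points of Cx3cr1 and Cxcr3 fall on both sides of it.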

How the data were processed

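Transcripts were measured on 16 arrays, 4 per group, grouped by source name, since some titles (those of control cMoPs) hold the names of both genotypes. The values are log2 expression levels deposited by the authors for every probe set. The probe set identifiers are numeric and belong to another Affymetrix platform than the array named in the design text. The tools affy, RMA and limma are named per the submitters' processing notes, with versions not given in the sources used here. The RMA method subtracts background, equalises array distributions and summarises probes, which can compress differences of low signals. Another table, whose 16 columns of values could be tied to no sample by name, was not used.

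Of 41345 probe sets, 23521 had 1 gene symbol in the platform annotation, 1820 had several and 16004 had none. The probe set with the highest mean was kept per gene (22180 genes), with no filter on low levels. By Entrez identifier 23328 probe sets matched RefSeq. In R 4.3.3, limma 3.58.1 fitted 4 group means to all 16 arrays, with Benjamini-Hochberg adjustment over all genes and a threshold of 0.05. The fit was tested on simulated data.

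The members, gene lists and tests were chosen with earlier results of these data known. The lists covered sort markers, late neutrophil, primary granule, plasmacytoid and conventional dendritic cell, mature monocyte, T and NK cell, B cell, basophil and mast cell, megakaryocyte and immediate early genes, and other chemokine receptors, ligands and signalling genes. All members were named with every value, and of the last 3 lists up to 6 genes past the threshold with the largest differences. For members whose group means span at least 1, the 3 most similar named genes were given. Alternatives were the mean over probe sets, removal of genes in the lowest 0.25 of mean levels, array weights, quantile normalization, centring on array medians, limma's trend and robust options, fits of 2 groups, a replicate block, a term for replicate numbers 1 and 2 against 3 and 4, and leaving out each array. Leaving out 3 arrays with both Xist and Y-linked transcripts was added after the data had been seen. The number of arrays limits the precision.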

Additional observations from a re-analysis of the deposited data

Results flagged for a closer look

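In 2 of the 32 groups of 4 arrays examined (8 receptors in 4 groups), 1 array lay far from the others by Dixon's criterion, which flags about 1 in 20 groups by chance. Both concern Cxcr4. Control MDP replicate 3 had a level of 10.58 where the others held 10.36 to 10.38, and control cMoP replicate 1 had 9.86 where the others held 10.18 to 10.22.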

How the results depend on the processing

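Cxcr2 in MDPs kept its direction and call under all 10 other settings and all 16 fits without 1 array (1.60 to 1.84). The count of receptors called there ran from 1 to 2 over these fits. Between control cell types it ran from 0 to 2 over the fits without 1 array, and was 2 with low genes removed, with quantile normalization or with array weights and 0 in the fit of only the 2 groups. Counts over all genes moved most: in MDPs from 432 to 264 with array weights, 64 with only the 2 groups and 165 without the arrays with both Xist and Y-linked transcripts, and to 214 to 505 without 1 array. In cMoPs the 25 genes became 60 with array weights and 15 to 28 without 1 array. Between c/chip cell types the 730 became 482 with only the 2 groups, 372 without those 3 arrays and 437 to 761 without 1 array, and the 13 of the interaction 25 without those 3 arrays and 5 to 33 without 1 array. The cause was not tested.

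Signs turned only for differences of at most 0.15 that never passed (adjusted p of 0.741 or more). Quantile normalization gave −0.00107 for Cx3cr1 in MDPs, and between c/chip cell types −0.00205 for Ccr2 and −0.00859 for Cxcr4. Median centring gave 0.0237 for Ccr2 in cMoPs and 0.0293 for Ccr1 between c/chip cell types, array weights 0.0221 for Ccr2 and 0.0289 for Ccr9 in cMoPs, and those 3 settings 0.0110, 0.0160 and 0.16 for Ccr9 in the interaction. Without the 3 arrays Ccr2 gave −0.0248 between c/chip cell types and Ccr9 0.364 in the interaction. Without 1 array, Ccr9 ran from −0.39 to 0.28 in MDPs, −0.21 to 0.12 in cMoPs, −0.24 to 0.43 between control and −0.0479 to 0.28 between c/chip cell types, and −0.31 to 0.36 in the interaction. Cx3cr1 in MDPs ran from −0.0445 to 0.16, Ccr2 in cMoPs from −0.0464 to 0.0556 and Cxcr4 in cMoPs from −0.07065 to 0.0607. Between c/chip cell types Ccr1 ran from −0.26 to 0.17 and Cxcr4 from −0.0352 to 0.14.

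With the replicate block, the counts of receptors called were the same in all 5 comparisons (1, 0, 1, 0 and 0) and Cxcr2 gave 1.68 (limma adjusted p = 0.00378). All genes called were 389, 26, 1011, 702 and 12. The labels do not say whether replicate numbers pair arrays of different groups. Same-numbered arrays of 2 groups correlated at −0.0453 to 0.214 in their deviations from group means, over 0.1 in 6 of 24 pairs. In 10 of the 24 the best match had the same number. Every array correlated best with its own number only between the c/chip cell types (4 of 4, r 0.0634 to 0.105).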
